A study of Mus musculus with 5 samples.

Results

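The liver makes most of the complement and clotting proteins of blood plasma, and the transcripts of 36 of these genes were followed in nuclei of mouse liver. The 36 genes were the rows of the count matrices that carry the symbols of a fixed list, and all 36 were found among the 32285 genes. They comprise 14 complement genes, 14 clotting factor genes and 8 anticoagulant or fibrinolytic genes. Single-nucleus RNA sequencing had been carried out on snap-frozen livers of male wild-type C57BL6/J mice, giving 3 libraries from animals on regular chow and 2 from animals on a diet used to induce MASH, metabolic dysfunction-associated steatohepatitis. Feeding began at an age of 10 to 12 weeks and lasted 5 months in both groups, and the MASH diet had 40 kcal% of fat, 20 kcal% of fructose and 2% cholesterol. Each library was treated as 1 sample, and since nothing in the labels ties a library to a given number of animals, the tests measure the spread between these libraries.

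Complement is a cascade of plasma proteins that marks and lyses microbes. It is started by C1q, by mannose-binding lectins with their MASP proteases, or by the alternative pathway, and the routes meet at C3 and end in the membrane attack complex of C5 to C9. Clotting factors are mostly zymogens of serine proteases that lead to thrombin, which turns fibrinogen into fibrin, while antithrombin, protein C and plasmin limit or dissolve the clot. Hepatocytes are the main source of nearly all of these proteins, and fibrinogen, C3 and several others are acute-phase proteins, made in larger amounts during inflammation.

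Hepatocyte nuclei were taken as nuclei with at least 2000 unique molecular identifiers (UMIs, each standing for 1 captured transcript) and at least 1 UMI of Hnf4a, a transcription factor of hepatocytes. This gate held 20592 of 51470 nuclei, from 3825 to 6254 per chow library and 2347 and 2235 in the MASH libraries, with 13192951 to 34715998 UMIs per library. Outside it lay clusters without a class name, the largest of 5372 nuclei, 2612 and 2749 of them from MASH replicates 1 and 2. Nuclei of the unnamed clusters entered neither the hepatocyte nor the class results. Of 8 hepatocyte markers, Hnf4a and Alb among them, none was at 0 in any library and 7 were lower in both MASH libraries than in all chow libraries. Hnf4a, on which the gate rests, was at 350, 543 and 618 CPM in chow and 257 and 222 CPM in MASH, and its part in the results was not tested. Chow replicate 3 stood apart from the others. Its serum amyloid A transcript Saa1, an acute-phase gene, was at 8893 CPM. CPM are UMIs over a library total that is rescaled by the TMM method, as for all hepatocyte levels unless called plain. The other chow libraries were at 724 and 130 CPM and the MASH libraries at 93.4 and 88.1 CPM. Outside the gate, 2270 of the 2345 nuclei in an unnamed cluster led by Saa2, Saa1 and Mt1 came from chow replicate 3. Results are therefore also given without chow replicate 3. Markers of other cell types summed to 259 to 523 plain CPM, not rescaled, in hepatocyte nuclei of chow and to 679 and 612 plain CPM in MASH. The part of these differences in the results was not tested. Any pair of libraries shared 23 to 48 cell barcodes.

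Summed over hepatocyte nuclei, the 36 genes took a smaller part of all transcripts in MASH. Their UMIs made up 1.97%, 1.78% and 3.01% of hepatocyte UMIs in chow replicates 1 to 3 and 0.911% and 0.901% in MASH replicates 1 and 2. Of the 36 genes, all of which passed the filter on low counts, 16 fell in MASH and 0 rose at an adjusted p under 0.05 (edgeR quasi-likelihood test, 3 chow against 2 MASH libraries). In the same test 617 of the 15141 genes tested fell, which is 4.08% of them. No member had an unadjusted p under 0.05 in the upward direction, and DESeq2 called 23 members lower and 0 higher, beside 9.91% of all genes called lower by that tool. The estimates were below 0 for 32 of the 36 members, with a median log2 fold change of -1.13 against -0.01 over all genes tested. Most of the hepatocyte markers outside the list were lower in MASH too. Alb was at 1946, 5546 and 4744 CPM in chow and 1816 and 1223 CPM in MASH. Cps1 was at 971, 1502 and 663 CPM in chow and 314 and 371 CPM in MASH. Ttr, at 698, 1404 and 1827 CPM in chow and 821 and 598 CPM in MASH, overlapped. Whether the members fell more than such genes was not tested. Of all calls 33.8% were lower in MASH. Scaling by library totals moved this to 17.5% and shifted the median of all genes by 0.32. With that scaling 7 members fell (C3, C8a, C8b, Fga, Fgb, Fgg and Serpinf2), beside 303 of the 15141 genes tested, with a member median of -0.79. For 29 members each MASH library was lower than each chow library, a pattern found in 24.2% of all genes tested.

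**Figure D1:**
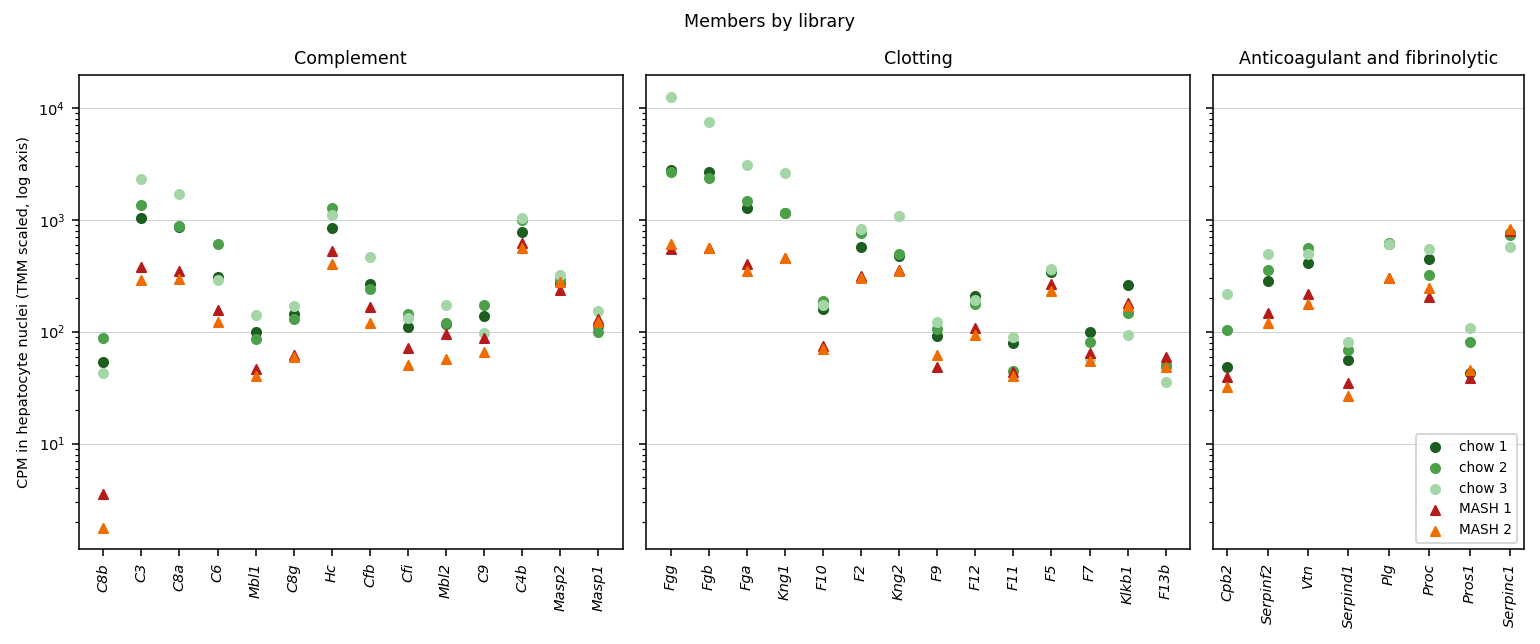
Level of each of the 36 genes in hepatocyte nuclei of each library, as TMM-scaled CPM on a log axis; circles are the 3 chow libraries, triangles the 2 MASH libraries, and genes are ordered within their group by fold change. The triangles lie below all circles for 29 genes, and chow replicate 3 is the highest library for 23.

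Without chow replicate 3, 21 members fell and 0 rose, among them all 16, beside 5.99% of all genes called lower, and the median log2 fold change of the members was -1.04. The 5 added were the complement genes C6, C9 and Hc, the clotting factor gene F9 and Plg, which made 9 of 14 complement, 8 of 14 clotting and 4 of 8 anticoagulant or fibrinolytic genes. The number of calls depended on the libraries, for the members and for all genes. Leaving out chow replicate 2 left 2 members called, C8b and C8g, beside 231 of all genes called lower, against 617 with all libraries. The fits that lacked MASH replicate 1 or 2 held 1 MASH library and called few members and few of all genes. Their member medians were -1.29 and -1.03. The 16 stayed below 0 in all 18 alternative settings.

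**Figure D2:**
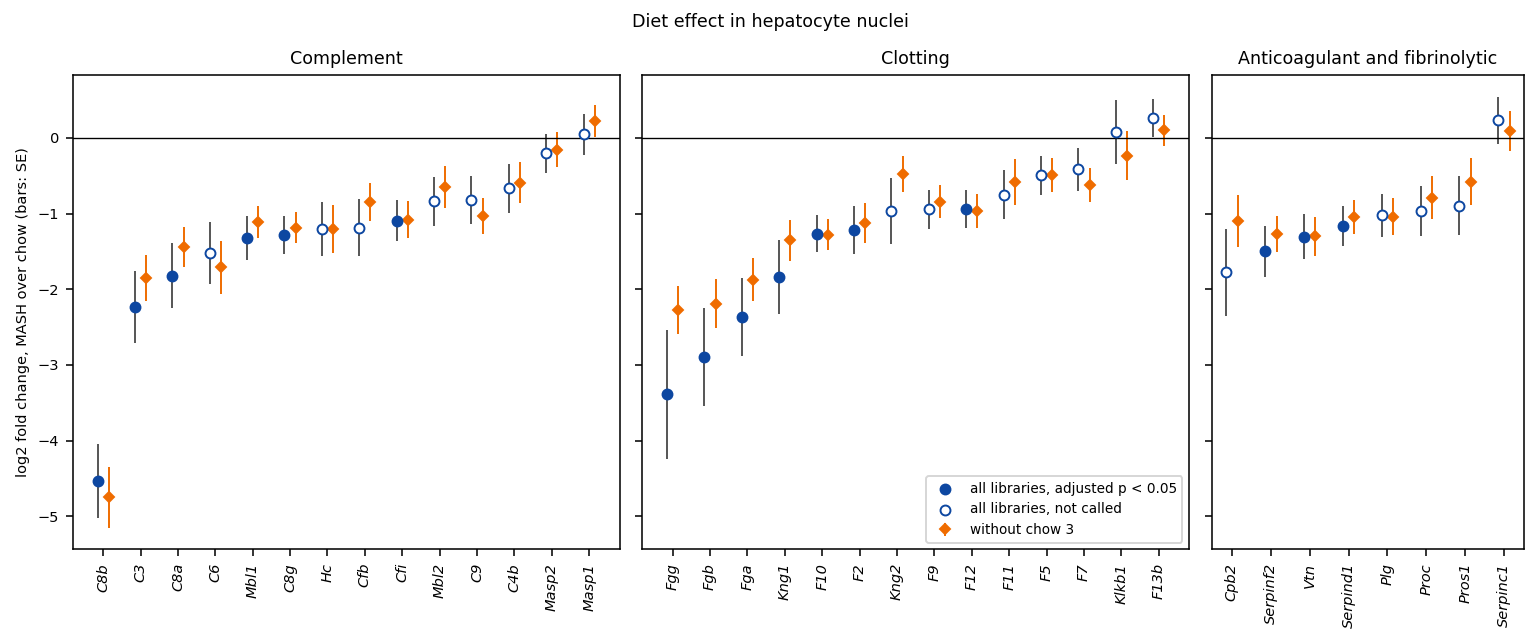
Log2 fold change of MASH over chow in hepatocyte nuclei for the 36 genes, with bars of 1 standard error; filled circles passed an adjusted p of 0.05, open circles did not, and orange diamonds are the same fit without chow replicate 3. The fibrinogen genes Fgg, Fgb and Fga move towards 0 without that library (Fgg from -3.39 to -2.27), while C8b does not.

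Among the complement genes, 6 of 14 fell, with a median log2 fold change of -1.20 over the 14, and the 6 were C8b, C3, C8a, Mbl1, C8g and Cfi. The largest estimate was that of C8b, which encodes the beta chain of C8, a component of the membrane attack complex. C8b stood at 53.5, 87.5 and 43.0 CPM in chow replicates 1 to 3 and at 3.55 and 1.77 CPM in MASH replicates 1 and 2. These values rested on 1205, 2228 and 1127 UMIs in chow and on 52 and 30 UMIs in MASH, and the groups were far from overlapping. Its log2 fold change was -4.53 (SE 0.48, adjusted p = 0.00369), 23.1 times lower in MASH, and C8b was the only member called in every alternative setting, with adjusted p up to 0.0499.

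The other chains of C8 had smaller estimates. C8a, the alpha chain, was at 866, 875 and 1680 CPM in chow and 351 and 296 CPM in MASH, a change of -1.82 on the log2 scale (SE 0.43, adjusted p = 0.0360). C8g, the gamma chain, was at 143, 129 and 169 CPM in chow against 61.8 and 58.9 CPM in MASH (log2 fold change -1.28, SE 0.25, adjusted p = 0.0208). C8a and C8b are neighbours on chromosome 4 of the mouse genome (GRCm38), C8b at 104766317 to 104804548 on the plus strand and C8a at 104815679 to 104876398 on the minus strand, with 11130 bases between them. C8g lies on chromosome 2 at 25498651 to 25501719. Whether the 3 chains differed from one another in their response was not tested.

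C3, the protein on which all routes of complement converge (chromosome 17, 57203970 to 57228136), was at 1032, 1356 and 2319 CPM in chow and 377 and 290 CPM in MASH. Its log2 fold change was -2.23 (SE 0.47, adjusted p = 0.026), or 4.70 times lower, and without chow replicate 3, the highest of the chow libraries, it was -1.85 (adjusted p = 0.0133). Mbl1, a mannose-binding lectin that starts the lectin pathway, was at 98.4, 86.9 and 141 CPM in chow and 46.3 and 40.6 CPM in MASH (log2 fold change -1.32, SE 0.29, adjusted p = 0.0292). Cfi, the protease that inactivates C3b and C4b, was at 111, 143 and 133 CPM in chow and 70.9 and 50.1 CPM in MASH (log2 fold change -1.09, SE 0.27, adjusted p = 0.0410). For each of these 3 genes every MASH library lay below every chow library.

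The other 8 complement genes did not pass the test with all libraries. C6 and Hc, which encodes C5, had log2 fold changes of -1.52 (SE 0.41, adjusted p = 0.0509) and -1.21 (SE 0.36, adjusted p = 0.0653). Without chow replicate 3 both passed, at -1.71 and -1.20. C9, the pore-forming end of the cascade, was at -0.82 (SE 0.32, adjusted p = 0.125) and passed without that library at -1.03. Cfb, the protease of the alternative pathway, was at -1.19 (SE 0.38), Mbl2 at -0.83 (SE 0.32) and C4b at -0.66 (SE 0.32), with or without it uncalled. C4b has a close copy, C4a, with which it may share reads. The proteases of the lectin pathway gave the smallest estimates. Masp2 was at 271, 292 and 319 CPM in chow and 233 and 276 CPM in MASH, and Masp1 at 113, 99.3 and 153 CPM in chow and 131 and 121 CPM in MASH, so that the groups overlapped for both. Their log2 fold changes, -0.20 (SE 0.26) and 0.05 (SE 0.27), were smaller than their errors, and that of Masp2 was 0.13 when scaled by library totals.

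Of the 14 clotting genes 7 fell, with a median log2 fold change of -0.95 over the 14. The 7 were the 3 fibrinogen chains, the kininogen gene Kng1 and the factors F10, F2 and F12. Fibrinogen is the soluble precursor of fibrin, built from alpha, beta and gamma chains whose genes Fga, Fgb and Fgg lie within 42140 bases of chromosome 3. The 250 bases before the annotated start of each gene (RefSeq, GRCm38.p6) are shown because the 3 genes moved together, with that of C8b for comparison, and capitals mark matches on either strand to CTGGGA (the core of interleukin-6 response elements), TTCNNNGAA (bound by STAT factors), TTGCNNAA (C/EBP), GTTAAT (an HNF1 motif) or CAAAGT (an HNF4 core).
Fga, chr3:83025903-83026152, plus strand: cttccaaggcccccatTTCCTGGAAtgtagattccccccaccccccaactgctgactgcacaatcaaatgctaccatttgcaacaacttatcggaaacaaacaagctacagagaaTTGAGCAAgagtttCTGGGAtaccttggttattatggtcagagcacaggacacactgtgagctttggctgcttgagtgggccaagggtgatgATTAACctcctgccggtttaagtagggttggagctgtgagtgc
Fgb, chr3:83049864-83050113, minus strand: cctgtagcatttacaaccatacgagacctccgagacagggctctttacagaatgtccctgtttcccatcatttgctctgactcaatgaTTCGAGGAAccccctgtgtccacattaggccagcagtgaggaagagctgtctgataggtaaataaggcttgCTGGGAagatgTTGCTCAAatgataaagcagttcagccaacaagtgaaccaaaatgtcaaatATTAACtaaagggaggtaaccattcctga
Fgg, chr3:83007474-83007723, plus strand: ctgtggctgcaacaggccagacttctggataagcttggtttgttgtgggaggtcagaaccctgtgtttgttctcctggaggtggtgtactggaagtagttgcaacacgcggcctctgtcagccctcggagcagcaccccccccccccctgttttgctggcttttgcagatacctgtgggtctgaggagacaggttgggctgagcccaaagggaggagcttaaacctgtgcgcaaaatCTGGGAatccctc
C8b, chr4:104766067-104766316, plus strand: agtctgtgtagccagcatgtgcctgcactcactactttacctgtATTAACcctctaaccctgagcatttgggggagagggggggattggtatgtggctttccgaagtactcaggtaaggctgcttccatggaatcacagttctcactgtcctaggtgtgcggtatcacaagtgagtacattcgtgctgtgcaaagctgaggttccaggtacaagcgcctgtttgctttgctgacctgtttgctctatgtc
The motif CTGGGA began 121, 91 and 13 bases before the start of Fga, Fgb and Fgg and was absent from the C8b window. It stood in 26.8% of the 27025 promoters of this length and in 11 of the 29 members that had one, 7 of 14 called and 4 of 15 not called. TTCNNNGAA and TTGCNNAA each had a match in Fga and Fgb and none in the other windows, and occurred in 7.18% and 9.55% of all promoters. GTTAAT matched in Fga, Fgb and C8b (6.52% of all promoters) and CAAAGT in none of the 4 windows (12.5% of all promoters). Over called and not called members, TTCNNNGAA stood in 3 of 14 and 3 of 15, and TTGCNNAA in 3 of 14 and 5 of 15. For GTTAAT these were 5 of 14 and 2 of 15, and for CAAAGT 2 of 14 and 3 of 15. A match gives letters in a window, and binding was not measured.

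The fibrinogen genes were far higher in chow replicate 3 than in the other chow libraries. Fgg was at 2796, 2681 and 12486 CPM in chow replicates 1 to 3 and at 543 and 601 CPM in MASH, which gave a log2 fold change of -3.39 with an SE of 0.85 (adjusted p = 0.0426). Fgb was at 2688, 2360 and 7425 CPM in chow and 564 and 556 CPM in MASH (-2.89, SE 0.65, adjusted p = 0.0319). Fga was at 1277, 1462 and 3100 CPM in chow and 405 and 351 CPM in MASH (-2.36, SE 0.51, adjusted p = 0.0289). The same library had the high Saa1 level, and the differences were also taken without it. Against chow replicates 1 and 2 alone, Fgg was 4.84 times lower in MASH, Fgb 4.56 times and Fga 3.66 times, where all libraries had given 10.5, 7.42 and 5.15 times. All 3 were called in either case, with adjusted p of 0.00917, 0.00988 and 0.0111 without the library.

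Kng1 encodes high molecular weight kininogen, the carrier of bradykinin, and was at 1150, 1152 and 2601 CPM in chow and 453 and 459 CPM in MASH (-1.84, SE 0.49, adjusted p = 0.0496), and without chow replicate 3 its log2 fold change was -1.35. Its neighbour Kng2, a close copy with which reads may be shared, did not pass (-0.97, SE 0.44, adjusted p = 0.174). F2, or prothrombin, was at 572, 756 and 818 CPM in chow and 316 and 299 CPM in MASH (-1.22, SE 0.32, adjusted p = 0.0482). F12, which starts the contact pathway, was at 210, 177 and 191 CPM in chow and 108 and 92.6 CPM in MASH (-0.94, SE 0.25, adjusted p = 0.0486). For F2, F12 and Kng1 the adjusted p was close to the threshold, and each of these calls was lost under some of the alternatives.

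F10, the protease that activates prothrombin, varied little within each diet. It was at 160, 189 and 173 CPM in chow and 74.9 and 70.1 CPM in MASH (-1.26, SE 0.24, adjusted p = 0.0203). F7, the partner of tissue factor, ends 1498 bases before F10 starts on chromosome 8 (F7 at 13026034 to 13035809, F10 at 13037308 to 13056676, both on the plus strand). F7 was at 100, 80.4 and 57.5 CPM in chow and 63.9 and 55.0 CPM in MASH, so that its groups overlapped, and did not pass (-0.42, SE 0.29, adjusted p = 0.349). Among the rest, F9 was just short of the threshold (-0.94, SE 0.25, adjusted p = 0.0510) and F11 (-0.75, SE 0.32) and F5 (-0.50, SE 0.26) did not pass. Klkb1, the prekallikrein gene next to F11 on chromosome 8, was at 264, 145 and 93.4 CPM in chow and 182 and 171 CPM in MASH, so that chow replicate 3 was lowest, not highest. F13b, the carrier subunit of factor XIII, was at 49.2, 49.7 and 35.3 CPM in chow and 59.2 and 48.1 CPM in MASH. Neither was called (0.08, SE 0.42, and 0.26, SE 0.25), and the estimate for Klkb1 turned to -0.24 without chow replicate 3.

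Of the 8 genes that restrain or dissolve clots, or inhibit their dissolution, 3 fell, with a median log2 fold change of -1.09 over the 8. Serpinf2, the plasmin inhibitor alpha 2-antiplasmin, was at 282, 353 and 495 CPM in chow and 147 and 119 CPM in MASH (log2 fold change -1.50, SE 0.34, adjusted p = 0.0323). Vtn, or vitronectin, an inhibitor of the membrane attack complex, was at 413, 554 and 497 CPM in chow and 219 and 176 CPM in MASH (-1.30, SE 0.30, adjusted p = 0.0337). Serpind1, heparin cofactor II, was at 55.7, 69.2 and 80.6 CPM in chow and 34.7 and 26.5 CPM in MASH (-1.16, SE 0.27, adjusted p = 0.0334).

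Serpinc1, which encodes antithrombin, was the only member that was higher in each MASH library than in each chow library. It was at 764, 737 and 571 CPM in chow and 800 and 820 CPM in MASH. The log2 fold change, 0.23, did not exceed its error (SE 0.31, adjusted p = 0.645). Plg, or plasminogen, the zymogen of plasmin, was at 606, 620 and 612 CPM in chow and 304 and 299 CPM in MASH, with narrow groups, but did not pass with all libraries (-1.02, SE 0.28, adjusted p = 0.0550) and passed without chow replicate 3 (adjusted p = 0.0354). Cpb2, the fibrinolysis inhibitor TAFI, differed widely among the chow libraries. It was at 48.7, 104 and 216 CPM in chow and 39.5 and 32.1 CPM in MASH (-1.78, SE 0.57, adjusted p = 0.0814; -1.09 without that library). Proc, protein C, and its cofactor Pros1, protein S, were not called (-0.96, SE 0.33, and -0.89, SE 0.39).

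Counts from droplets can also hold RNA released from other cells, and the members were not confined to hepatocyte nuclei. In stellate-like, endothelial-like and macrophage-like nuclei the median level of the 36 genes was 0.382 to 1.06 times the hepatocyte level of the same library in plain CPM, or 0.0727 to 0.328 times in UMIs per nucleus. Taking the mean UMIs of an endothelial-like nucleus off each hepatocyte nucleus, a step added after the data had been seen, left 32 members below 0 with a median of -1.02. C8b was the only member still called (-4.74, adjusted p = 0.0499), with 227 of 13603 genes called in all.

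Diet effects were then compared along the lobule, in which blood flows from the portal tract to the central vein. Hepatocyte nuclei of each library were split into 3 zones of equal size by a score of pericentral over periportal marker genes. Within the libraries, 19 of the 36 genes were higher in the periportal zone in all 5 libraries, 5 were higher in the pericentral zone in all 5, and 12 were mixed; these counts include differences near 0. Of the 14232 genes that passed the filter on low counts in this split, 13.9% were periportal in all 5 libraries and 14% pericentral. The periportal genes were 8 complement, 6 clotting and 5 anticoagulant or fibrinolytic genes. C9 had the largest periportal difference, with log2 ratios of pericentral over periportal of -0.95, -0.73 and -0.32 in chow and -1.02 and -0.99 in MASH, followed by C8a, with a mean of -0.69 (SD 0.21, n = 5), and Serpinf2 with -0.66 (SD 0.26, n = 5). The pericentral genes were Pros1, C6, Mbl1, Mbl2 and F5. Pros1 was at log2 ratios of 0.91, 0.73 and 0.47 in the chow libraries and 0.52 and 0.35 in those of MASH, and C6 at a mean of 0.54 (SD 0.20, n = 5). The components of the membrane attack complex thus lay at both ends, C9, C8a and Hc periportal and C6 pericentral.

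**Figure D3:**
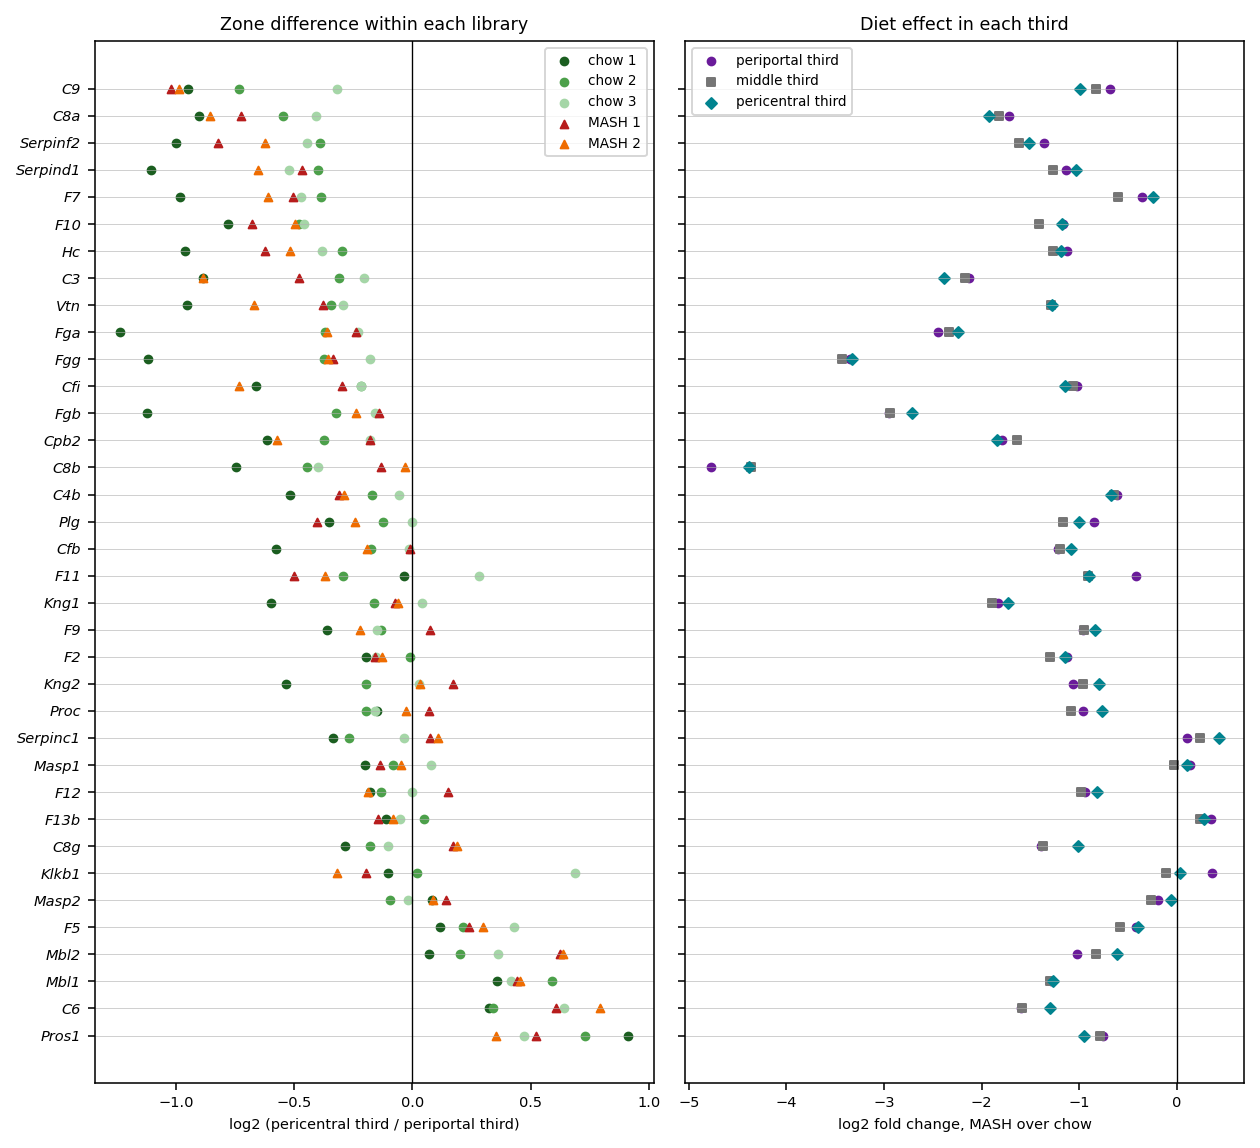
Left, log2 ratio of the level in the pericentral zone over that in the periportal zone for each gene and library; right, log2 fold change of MASH over chow within each zone. Genes are ordered by the mean of the left panel, from C9 (periportal) to Pros1 (pericentral), and the 3 symbols of the right panel differ by a median of 0.21.

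The estimates of the diet difference lay close together in the 3 zones, with a median spread of 0.21 on the log2 scale. In the pericentral zone 7 members fell (beside 2.93% of all genes tested there), in the middle zone 11 (2.86%) and in the periportal zone 15 (3.92%), and 7 fell in all 3. The order of these counts depended on the split and the fit. Zones cut at 1 score for all libraries gave 13 in the pericentral and 5 in the periportal zone, beside 1442 and 681 of all genes called. A replicate block gave 13 and 21, beside 1527 and 2467 of all genes called. Medians over the 36 were -1.02, -1.18 and -1.10. C8b had log2 fold changes of -4.39 (SE 0.52), -4.36 (SE 0.41) and -4.78 (SE 0.52) in the pericentral, middle and periportal zones, and C3 of -2.38, -2.17 and -2.13. The counts of members depended on the libraries. With chow replicate 3 left out, 16, 20 and 20 members fell in the pericentral, middle and periportal zones, beside 629, 660 and 751 of all genes. Leaving out chow replicate 1 gave 21, 22 and 19 members, beside 863, 890 and 966 of all genes called lower. Leaving out chow replicate 2 gave 1, 2 and 7 members, beside 231, 147 and 227 of all genes. The fits that lacked either MASH replicate, and so held 1 MASH library, called few or no members and few of all genes. A direct test of the difference between pericentral and periportal zones called 0 members (edgeR quasi-likelihood with the library as a block; 1.74% of 13756 genes were called), and 4 of 36 had an unadjusted p under 0.05. Its estimates ran from -0.46 for Klkb1 to 0.41 for Mbl2, and the smallest adjusted p was 0.152. In simulated counts with the same library sizes, this interaction test recovered 7% of genes given a log2 difference of 1 and 87% of those given 2. The simulation let the zones of a library vary independently. These shares therefore do not give the power for the members, whose standard errors in the real test were at most 0.38.

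Disease-associated hepatocytes (daHep), which the study marks by Nrg1, Anxa2, Gdf15, Sox4, Klf6 and Jun, were next set against other hepatocyte nuclei. Within the gate, nuclei with at least 2 of these 6 genes after thinning to 2000 UMIs made up 1.55% to 6.12% of hepatocyte nuclei in chow. In MASH they made up 33.4% and 29.0%. The largest unnamed cluster outside the gate, mostly from MASH and with Nrg1 among its leading genes, was not part of this split. Within MASH, marker-positive nuclei held slightly less of most of the 36 genes than negative nuclei, with median log2 ratios of -0.14 and -0.15 in replicates 1 and 2, and 26 members were lower in both, a pattern found in 30.1% of 13880 genes, whose medians were -0.0050 and 0.0039. The ratios stayed between -0.57 and 0.28. C3, Mbl2, F12, Kng2 and Cpb2 were higher in both, beside 30% of all genes. Most of the 36 genes were also lower in marker-negative nuclei of MASH than in those of chow. Whether negative nuclei include daHep nuclei with few marker UMIs was not tested. C8b was at a mean of 59.9 CPM in negative nuclei of chow, 2.81 CPM in negative nuclei of MASH and 2.74 CPM in positive nuclei of MASH, and for Fgb the same means were 4087, 602 and 566 CPM. Over the 36 genes the negative nuclei of MASH had a median log2 difference of -0.95 from those of chow, against 0.06 over all genes.

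Sources outside the hepatocyte were sought in nuclei outside the gate, in the clusters that could be named by fixed markers. Class levels are plain CPM, without TMM scaling, and are set against the plain hepatocyte CPM. Since droplets can hold released RNA, 8 other hepatocyte secretory genes, Alb among them, served as a measure of it. The median CPM of these 8 genes in stellate-like, endothelial-like and macrophage-like nuclei was 0.900 to 2.21 times that in hepatocyte nuclei. Of the 36 members, 1 exceeded the highest of these 8 genes in every library of any class found in at least 3 libraries. This was Masp1 in stellate-like nuclei, which are liver pericytes named by Reln, Dcn, Pdgfrb and other genes. Masp1 was there at 736, 485 and 512 CPM in chow and 511 and 468 CPM in MASH, or 5.95, 5.30, 4.43, 3.52 and 3.27 times the plain hepatocyte CPM of the same library, and did not differ by diet beyond its error (log2 fold change -0.25, SE 0.37, adjusted p = 0.821). Pros1 was above the hepatocyte level in endothelial-like nuclei in all 5 libraries, by 1.42 to 2.83 times, and above the highest secretory gene in 3 of them.

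**Figure D4:**
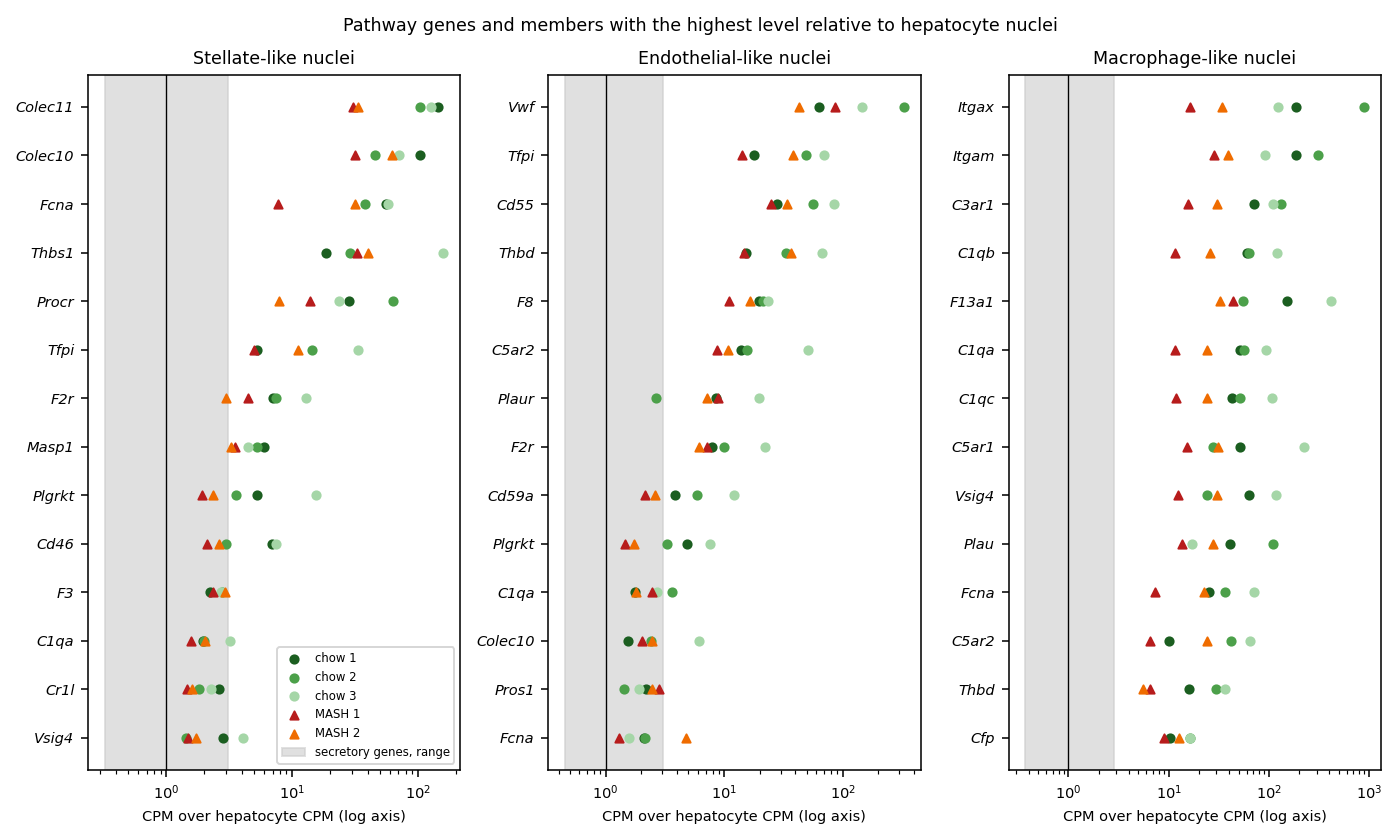
CPM in stellate-like, endothelial-like and macrophage-like nuclei divided by the hepatocyte CPM of the same library (both plain, without TMM scaling), on a log axis, for up to 14 of the genes reported here per class among those above 1 in every library; grey spans the range of 8 secretory genes, a measure of released RNA. Masp1 in stellate-like nuclei, at 3.27 to 5.95, is the only one of the 36 genes above the highest secretory gene in every library.

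The other genes of the 2 cascades, a list of 65 that are not among the 36, had more nonhepatocyte sources. In stellate-like nuclei the lectin genes Colec11 and Colec10 were 30.5 to 144 and 31.9 to 104 times the hepatocyte level. Endothelial-like nuclei held F8, the gene of the factor missing in haemophilia A, at 512, 404 and 381 CPM in chow and 384 and 497 CPM in MASH, and Vwf, its carrier, at 82.2 to 126 CPM. Macrophage-like nuclei held the C1q chains, with C1qa at 330, 326 and 731 CPM in chow and 348 and 466 CPM in MASH. Clu, an inhibitor of the membrane attack complex, was 9.55 to 12.3 times the hepatocyte level in cholangiocyte-like nuclei of the 3 libraries that held at least 20 of them.

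In nonhepatocyte nuclei, 4 tests of a member and 7 of other pathway genes passed for diet. From 20 to 36 members and 12 to 49 other pathway genes were tested in each of 6 classes. C8b fell in endothelial-like (log2 fold change -3.59, SE 0.54; 1.53% of genes called), macrophage-like (-3.52, SE 0.60; 2.02% called) and stellate-like nuclei (-3.83, SE 0.63; 0.943% called), at 0.603 to 3.32 times the hepatocyte level of the same library. These rest on 135, 81 and 81 UMIs in all, and the part of released hepatocyte RNA in them was not tested. C6 passed in macrophage-like nuclei (-2.10, SE 0.41, adjusted p = 0.0280), at 0.590 to 1.90 times the hepatocyte level, and held in 1 of 5 fits that left out a library. The part of released hepatocyte RNA in it was not tested either. Fcna, ficolin A, a starter of the lectin pathway, fell in stellate-like nuclei from 269, 183 and 278 CPM in chow to 22.7 and 13.3 CPM in MASH (-3.80, SE 0.44, adjusted p = 0.00343), and also in macrophage-like (-3.74) and proliferating-like nuclei (-3.20; 0.792% called). Plat, the tissue plasminogen activator, rose in stellate-like nuclei from 10.3, 3.82 and 2.06 CPM to 53.9 and 95.0 CPM (3.67, SE 0.52, adjusted p = 0.00656). Its levels rest on 5, 1 and 1 UMIs in chow and on 64 and 172 UMIs in MASH. Macrophage-like nuclei of chow and of MASH came mostly from different clusters, led by Cd163 and Clec4f in chow and by Ccr2 and Gpnmb in MASH, and endothelial-like nuclei by Clec4g in chow and Vwf in MASH. In macrophage-like nuclei Itgax rose (2.20) and Serping1 fell (-2.13). The 11 calls, beside 465 over all genes, became 23 without chow replicate 1, beside 853, and 31 without chow replicate 3, beside 975. Without chow replicate 2 there were 6, beside 189, with B-like and proliferating-like nuclei not refitted. The fits that lacked a MASH replicate held 1 MASH library, and fewer genes were called.

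In hepatocyte nuclei, 59 of the 65 other pathway genes could be tested, and 6 fell while 11 rose. Of all genes, 4.08% were called lower and 8.0% higher. The median log2 fold change of the 59 was 0.03. The 17 calls were reduced to 5 without chow replicate 2, while the calls over all genes went from 1828 to 567. The fits that lacked a MASH replicate held 1 MASH library, and few pathway genes and few of all genes were called. Among those that fell, Serping1, the C1 inhibitor, was at 344, 205 and 590 CPM in chow and 66.7 and 78.2 CPM in MASH (-2.39, SE 0.47, adjusted p = 0.0225), and Serpine2, a thrombin inhibitor, at 32.7, 48.0 and 103 CPM and 5.46 and 5.32 CPM (-3.51, SE 0.53, adjusted p = 0.0104). C1ra, a protease of the C1 complex, and Hrg each fell by 1.10 on the log2 scale.

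Among the 11 that rose, Plgrkt, a plasminogen receptor, was at 28.2, 19.8 and 16.1 CPM against 55.5 and 56.6 CPM (log2 fold change 1.39, SE 0.28, adjusted p = 0.0233). Plat had 1, 0 and 4 UMIs in the chow libraries and 43 and 74 UMIs in the MASH libraries, and F2rl1, a protease-activated receptor, had 1, 0 and 1 against 49 and 23 UMIs. Stellate markers in hepatocyte nuclei summed to 82.6 to 96.6 plain CPM in chow and 184 and 194 plain CPM in MASH. Of these 10 markers, 7 were higher in both MASH libraries than in each chow library. Cholangiocyte markers summed to 27.4 to 68.9 plain CPM in chow and 97.0 and 141 plain CPM in MASH, with 7 of 8 higher. Plat rose in stellate-like nuclei, and F2rl1 was 7.09 to 1242 times the hepatocyte level in cholangiocyte-like nuclei of 3 libraries. The value of 1242, in chow replicate 3, rests on 1 hepatocyte UMI. The part of the stellate and cholangiocyte markers in the rises of Plat and F2rl1 was not tested. A further 7, C1qa, C1qb, C1qc, C3ar1, C5ar1, Itgax and Plau, were at 27.2 CPM or lower in every library. Their levels in macrophage-like nuclei were 11.5 to 889 times as high, where 889, for Itgax in chow replicate 2, rests on 1 hepatocyte UMI. Macrophage markers in hepatocyte nuclei summed to 41.9 to 58.2 plain CPM in chow and 175 and 69.4 plain CPM in MASH. Of these 10 markers, 5 were higher in both MASH libraries than in all chow libraries. The part of these markers in the rises of the 7 genes was not tested.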

How the data were processed

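The deposited files were raw UMI counts per gene and nucleus, which the authors made from 10x 3′ libraries of sorted nuclei with Cell Ranger 8.0.1 on GRCm38 (submitters' processing notes), leaving intronic reads out. Counts were summed per library over hepatocyte nuclei, zones and classes. Nuclei had at least 300 genes, and doublets (highest Scrublet scores, 0.8% per 1000 nuclei, scanpy 1.11.5, Python 3.11.15) were removed, because the automatic threshold called almost none. The 3 zones split each library's hepatocyte nuclei equally by pericentral minus periportal markers. Nuclei outside the hepatocyte gate were clustered without the members and named by fixed markers, with naming thresholds set after the data had been seen. Of 18 clusters 11 were named, and nuclei of the others entered neither the hepatocyte nor the class results.

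Sums were tested with edgeR 4.0.16 in R 4.3.3 (quasi-likelihood, TMM, filterByExpr, all genes, two-sided, Benjamini-Hochberg, called under 0.05), checked on simulated data. Hepatocyte levels are TMM-scaled CPM; class levels, and the hepatocyte levels they are divided by, are plain CPM. Alternatives included DESeq2 1.42.0, other scalings, gates and left-out libraries. Subtracting free RNA, and leaving out chow replicate 3 with nuclei over 10% mitochondrial UMIs, were added after seeing the data. The members and lists were chosen with earlier results of these data known. All 36 members are accounted for, with values per library for those called; of the other pathway genes, those called or above the hepatocyte level in a class in every library could be named. Other members named with values were chosen after their values were seen. Libraries held 35612373 to 49137377 UMIs, and 5 libraries limit the precision. Gene positions are from GENCODE M21 and promoters from RefSeq (29 of 36 members matched). Counting did not separate overlapping genes or close copies here. Some of the other pathway genes are counted but not reported here by name.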

Additional observations from a re-analysis of the deposited data

How the results depend on the processing

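Of the 16 members called in hepatocyte nuclei, 7 were called with library totals, beside 1728 of all genes. With free RNA subtracted 1 was called, beside 227 of all genes. Leaving out 1 chow library gave 2 to 22 called members and 5 to 21 called pathway genes in hepatocyte nuclei. All genes called there ranged from 567 to 2900. By zone, leaving out 1 chow library gave 1 to 21 members in the pericentral, 2 to 22 in the middle and 7 to 20 in the periportal zone. All genes called there ranged from 521 to 1956, 359 to 2218 and 527 to 2317. Library totals gave 6 members in the middle zone and 7 in the periportal zone, beside 1084 and 1447 of all genes. Zones cut at 1 score for all libraries gave 13 in the pericentral and 5 in the periportal zone, beside 1442 and 681 of all genes. The zone by diet interaction called 0 members in every alternative. In nonhepatocyte classes leaving out 1 chow library gave 6 to 31 calls against 11, beside 189 to 975 of all genes against 465. In hepatocyte nuclei and zones, the fits that lacked a MASH replicate held 1 MASH library and called fewer members. The cause of these changes was not tested.

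The labels give replicate numbers but no pairing. Deviations of same-numbered libraries from their diet mean correlated at -0.04 and -0.14. The deviations of the 2 MASH libraries mirror each other, so these values cannot decide whether libraries are paired. With the replicate block 15 members were called in hepatocyte nuclei and 13 in the pericentral zone, beside 2010 and 1527 of all genes. In nonhepatocyte classes 16 genes were called with it, beside 514 of all genes. B-like and proliferating-like nuclei could not be fitted with the block. Estimates near 0 changed sign for Masp1 (-0.12 to 0.23 when 1 library was left out, below 0 without chow replicate 1 at -0.01, without chow replicate 2 at -0.12 and without MASH replicate 1 at -0.02), Masp2 (0.13 with library totals) and Klkb1 (-0.25 without chow replicate 3 and mitochondrial nuclei, -0.15 with the replicate block, and -0.24 to 0.56 when 1 library was left out, below 0 at -0.06 without chow replicate 2 and at -0.24 without chow replicate 3). Cholangiocyte-like, mesothelial-like and neutrophil-like nuclei came from too few libraries to test.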
